A study of Homo sapiens with 36 samples.

Results

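The genes described here are the HIF hydroxylases and the degradation genes that act beside them. They are EGLN1, EGLN2, EGLN3, HIF1AN, P4HTM, VHL and SIAH2, chosen by symbol from the deposited table of messenger RNA counts. Each symbol matched 1 row, so 7 of the 60591 rows of that table are described. All 7 passed the filter on low counts in each cell line, where 16034 genes of Caco-2 and 15812 genes of HT-29 were tested.

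Both lines are human colorectal cancer lines that serve as models of gut epithelium. Caco-2 cells were held under differentiation conditions for 21 days, and no differentiation step is given for HT-29, so that line and culture state cannot be told apart. Cells of each line were exposed for 24 h to cobalt chloride (CoCl2, 300 µM), to an oxyquinoline derivative (OD, labelled Oxy, 5 µM), or to the solvent alone, dimethyl sulfoxide at 0.5 µl per ml of medium (control). The OD cells received the same volume of solvent. For CoCl2 the labels name water as the solvent of the stock, and the sources differ on whether these cells also received dimethyl sulfoxide. Each of the 6 groups had 3 biological replicates, and their 18 libraries, of 36 in the series, held from 12925719 to 22332639 counts.

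HIF, the hypoxia-inducible factor, is a pair of proteins whose alpha subunit is made continually and destroyed in the presence of oxygen. EGLN1, EGLN2 and EGLN3 encode the prolyl hydroxylases PHD2, PHD1 and PHD3, which use oxygen, iron and 2-oxoglutarate to hydroxylate prolines of the alpha subunit. VHL encodes the protein that recognises the hydroxylated prolines and brings the subunit to a ubiquitin ligase for breakdown. HIF1AN encodes FIH, an asparaginyl hydroxylase that blocks the binding of a coactivator to HIF. P4HTM encodes a further prolyl hydroxylase, which spans the membrane of the endoplasmic reticulum, and SIAH2 a ubiquitin ligase whose targets include prolyl hydroxylases. EGLN1 and EGLN3 are themselves textbook HIF target genes, and both agents are used as inhibitors of the prolyl hydroxylases. The measurements below are of messenger RNA, not of protein or of enzyme activity.

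All 7 genes are protein-coding, and their positions are given on GRCh38 from GENCODE v44. EGLN1 (ENSG00000135766) lies on chromosome 1 from 231363751 to 231422287 on the minus strand, EGLN2 (ENSG00000269858) on chromosome 19 from 40798996 to 40808434 on the plus strand, and EGLN3 (ENSG00000129521) on chromosome 14 from 33924227 to 34462774 on the minus strand. HIF1AN (ENSG00000166135) lies on chromosome 10 from 100529072 to 100559998 on the plus strand. The other three lie on chromosome 3, with VHL (ENSG00000134086) from 10141778 to 10153667 and P4HTM (ENSG00000178467) from 48989889 to 49007153 on the plus strand, and SIAH2 (ENSG00000181788) from 150741125 to 150763477 on the minus strand. Some exons are shared with other genes, which limits what a count of that gene holds. Of the exon bases of EGLN1, 55.8% are shared with another gene on the same strand, ENSG00000287856, and of those of EGLN2, 30.6% with the read-through gene RAB4B-EGLN2, which had 0 counts in all 18 libraries. Genes on the opposite strand share 23.5% of the exon bases of VHL and 4.05% of those of SIAH2, and the counting is not stated to use strand. For SIAH2 that gene is SIAH2-AS1, with 0 to 11 counts per library. No exon base of EGLN3 is shared.

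The sequences just upstream of the start sites are shown because 2 of these genes, EGLN1 and EGLN3, are known HIF targets, and the letters that HIF recognises can be looked for there. Each run below is the 250 bases before a RefSeq start (GRCh38.p14), on the strand of the gene and read 5′ to 3′. Capitals mark ACGTG and GCGTG, the letters of the HIF response element core, or their reverse complements CACGT and CACGC, so that both strands were searched. CACGTG, an E-box read by other factors, holds ACGTG and CACGT at once. Of the 7 genes, 6 had an entry, and the first of the EGLN2 starts and the starts of EGLN1, EGLN3 and SIAH2 are printed.
EGLN1, chr1:231422288-231422537, minus strand: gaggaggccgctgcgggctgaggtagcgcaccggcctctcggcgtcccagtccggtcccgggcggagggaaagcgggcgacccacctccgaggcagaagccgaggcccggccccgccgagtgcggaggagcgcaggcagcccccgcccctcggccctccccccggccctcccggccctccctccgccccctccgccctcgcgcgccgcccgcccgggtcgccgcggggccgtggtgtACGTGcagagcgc
EGLN3, chr14:33951075-33951324, minus strand: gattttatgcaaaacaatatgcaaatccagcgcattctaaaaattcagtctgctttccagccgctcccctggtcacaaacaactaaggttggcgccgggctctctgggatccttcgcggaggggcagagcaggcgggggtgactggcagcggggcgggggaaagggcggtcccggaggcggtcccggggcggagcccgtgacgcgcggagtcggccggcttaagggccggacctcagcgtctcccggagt
EGLN2, chr19:40798941-40799190, plus strand: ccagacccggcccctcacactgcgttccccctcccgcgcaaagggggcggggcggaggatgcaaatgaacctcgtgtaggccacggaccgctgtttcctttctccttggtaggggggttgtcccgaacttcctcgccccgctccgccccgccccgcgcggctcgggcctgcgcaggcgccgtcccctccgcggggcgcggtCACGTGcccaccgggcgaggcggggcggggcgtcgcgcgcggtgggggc
SIAH2, chr3:150763170-150763419, minus strand: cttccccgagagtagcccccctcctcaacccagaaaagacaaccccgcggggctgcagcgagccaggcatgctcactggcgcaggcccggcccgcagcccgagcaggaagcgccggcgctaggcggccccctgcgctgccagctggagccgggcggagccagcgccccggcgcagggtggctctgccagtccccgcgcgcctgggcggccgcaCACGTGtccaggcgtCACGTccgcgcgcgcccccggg

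The EGLN1 window held 1 such run, ACGTG, whose first base lay 13 bases before the start. The SIAH2 window held 2 runs, CACGTG at 37 bases and CACGT at 22 bases before the start, and the EGLN2 window held CACGTG at 49 bases. None of the letters was found in the windows of EGLN3, HIF1AN, P4HTM or the other start of EGLN2. Among 35116 promoter windows of the same length, 43.2% held at least 1 of the letters, 18.5% held ACGTG or CACGT and 6.34% held CACGTG. The matching windows of EGLN1, SIAH2 and EGLN2 were richer in G and C (81.2%, 77.2% and 76.0%) than the median window (58.0%). They held 36, 31 and 35 CG steps beside a median of 11. All the letters searched hold CG, so these shares are not matched for composition. A match is a description of the letters only.

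The epithelial identity of the lines could be checked in the same libraries. Of 10 epithelial markers, at least 9 had 10 or more counts in every library of each group, and their summed level ran from 5101 to 9355 CPM (counts per 1000000 counts of the library). The summed level of 8 markers of differentiated enterocytes was 3538 to 5238 CPM in Caco-2 and 131 to 204 CPM in HT-29. The summed level of 12 markers of blood, vessel, connective tissue and glial cells was at most 48.9 CPM. Not all were absent. In each group 1 to 5 of the 12 had 10 or more counts in every library, with 5 in Caco-2 control. There COL1A1 stood at 25.1 CPM, PECAM1 at 8.84 CPM and PDGFRA at 8.29 CPM. S100B was at 0 in all 18 libraries. CDX1 was at 0 in the treated Caco-2 libraries and APOA4 in the control and OD libraries of HT-29. The libraries had unlike composition between treatments, with mean scaling factors (trimmed mean of M values, TMM) for control, CoCl2 and OD of 1.12, 0.894 and 1.00 in the Caco-2 libraries, and of 1.19, 0.770 and 1.09 in those of HT-29. Scaled by library size only, all genes together shifted, their median by -0.32 (CoCl2) and -0.15 (OD) for Caco-2 and by -0.63 and -0.14 for HT-29 on the log2 scale. The calls defined below then split for CoCl2 into 870 higher and 3546 lower in Caco-2, beside 1464 and 2283 with TMM, and into 1295 and 6250 in HT-29, beside 2749 and 3775. Levels below are CPM on TMM-scaled library sizes, and changes are relative to that scaling.

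Across the 7 genes, CoCl2 raised EGLN1 and EGLN3 in both lines and EGLN2 in HT-29, while OD raised EGLN1 in Caco-2. A call needed a false discovery rate (FDR) under 0.05 in edgeR together with a level more than 2-fold above or below control, that is a log2 fold change beyond 1 in size. By that rule CoCl2 gave 2 calls among the 7 genes and OD gave 1 in Caco-2, against 23.4% and 11.7% of all genes tested. In HT-29, CoCl2 gave 3 calls and OD 0 (0 with DESeq2 and with limma-trend too, and 5 at an unadjusted p under 0.05), against 41.3% and 17.1% of all genes. These counts are near the background of such strong treatments, so that the size of the changes in the named genes, and not their number, is what follows. With TMM all calls were of higher levels, against 9.13%, 4.43%, 17.4% and 9.50% of all genes called higher. Under library size scaling alone, CoCl2 gave 2 higher and 1 lower (P4HTM) in Caco-2, and 2 higher and 2 lower (VHL and P4HTM) in HT-29, where EGLN2 was no longer called. With FDR alone as the rule, 6, 6, 7 and 5 of the genes passed, against 64.7%, 50.4%, 82.8% and 68.8% of all genes. Treated and control libraries did not overlap for 7, 6, 7 and 4 of the members, against 69.0%, 59.4%, 83.2% and 71.1% of all genes. Within groups the members varied with a median coefficient of variation of 5.79%, from 1.14% to 27.4%.

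**Figure D1:**
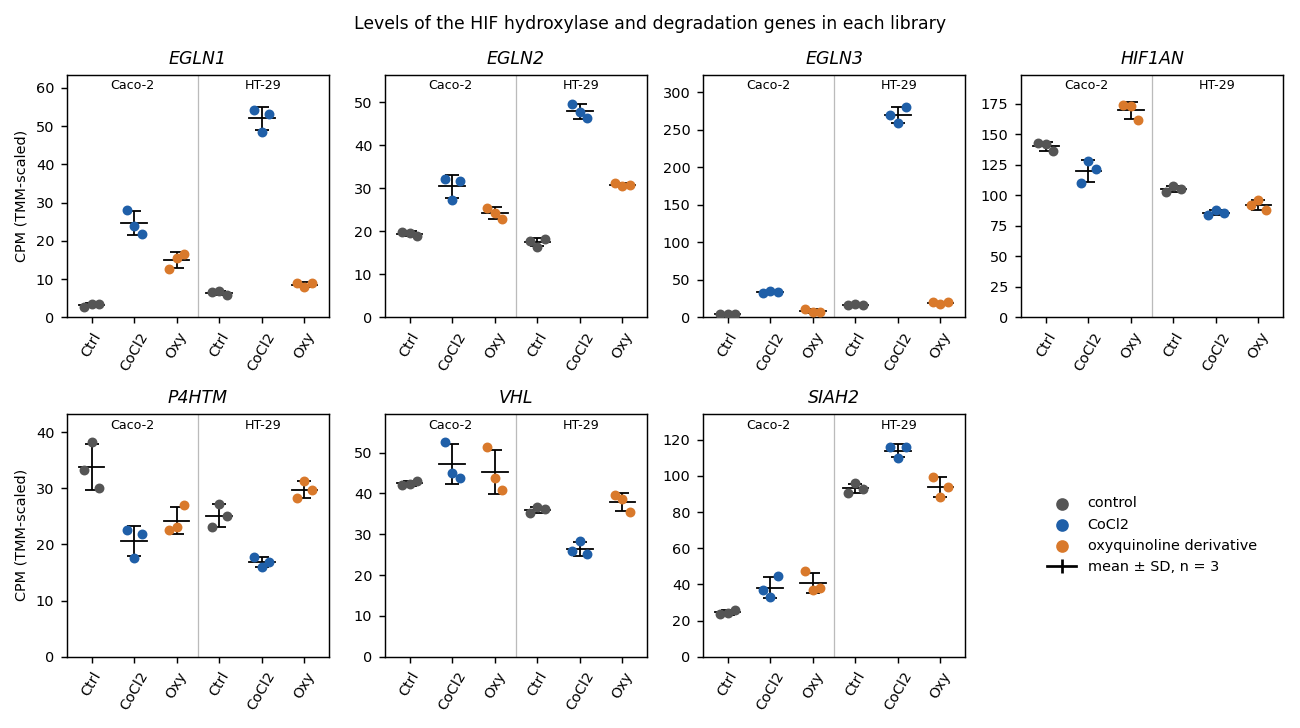
Level of each of the 7 genes in CPM (linear axis from 0, TMM-scaled within each line) in the 18 libraries, as points by group, with the mean and SD of 3 libraries as black lines. EGLN3 stands between 259 and 280 CPM in the HT-29 CoCl2 libraries and at or below 34.5 CPM in every other library, while HIF1AN stays between 83.7 and 174 CPM.

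EGLN1, whose product PHD2 is regarded as the main oxygen sensor of the HIF pathway, was low in untreated cells. Per length of its merged annotated exons it stood at 0.604 ± 0.0837 RPKM (reads per kilobase of that length, scaled to library size, SD, n = 3) in Caco-2 control, where EGLN3 had 0.624 ± 0.0766. In HT-29 control it stood at 1.23 ± 0.0988 RPKM, below the other members. That order rests on the full exon length. With the same counts divided by the unshared exon length, chosen after seeing the data, the order turned. EGLN1 then stood above EGLN3 in both controls (21.6% against 9.85% of the summed level of the 3 EGLN genes in Caco-2, and 30.6% against 26.0% in HT-29). Reads of shared exons were not taken out of these counts, and any that were counted to EGLN1 would raise its value. In Caco-2 its scaled level was 2.68, 3.49 and 3.39 CPM in the control libraries, from 46 to 52 counts each. It reached 28.2, 24.0 and 21.9 CPM with CoCl2 and 12.6, 15.6 and 16.7 CPM with OD. The 3 groups did not overlap, and the order was control, OD, CoCl2. The change was 7.75-fold with CoCl2 (log2 fold change 2.95, SE 0.16, edgeR FDR 6.00e-14) and 4.72-fold with OD (2.24, SE 0.16, edgeR FDR 5.91e-11). In rank these were the 124th and the 90th highest of 16034 log2 fold changes.

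In HT-29, EGLN1 stood at 6.58, 6.84 and 5.86 CPM in control, at 54.3, 48.6 and 53.3 CPM with CoCl2 and at 8.90, 7.91 and 8.94 CPM with OD. The CoCl2 libraries were far above the rest, and the OD libraries were a little above control without overlap. CoCl2 raised EGLN1 8.17-fold (log2 fold change 3.03, SE 0.08, edgeR FDR 6.92e-22). With OD the level was 1.35-fold that of control (0.43, SE 0.10, edgeR FDR 0.000670), under the limit of 2-fold. Thus the transcript moved by about the same factor with CoCl2 in either line, and the difference in that response was -0.03 on the log2 scale (95% interval -0.41 to 0.34, edgeR FDR 0.917), with a sign that turned to 0.07 under median-ratio size factors and to 0.42 on the deposited log2 values (limma-trend FDR 0.00413). The response to OD was lower in HT-29 by a log2 difference of -1.83 (SE 0.20, 95% interval -2.23 to -1.42, edgeR FDR 2.95e-09), which was called, as were 15.2% of the 17921 genes tested over both lines, 6.24% of them lower. On the deposited log2 values, which carry a pseudocount of 1, the same difference lay at the limit and was not called (limma-trend FDR 1.01e-06).

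EGLN3 encodes PHD3, a prolyl hydroxylase known for strong induction by hypoxia. Its level in Caco-2 was 5.12, 4.29 and 4.08 CPM in control, 32.1, 34.5 and 33.7 CPM with CoCl2, and 11.4, 7.51 and 7.13 CPM with OD. All treated libraries were above all control libraries, and 1 OD library stood apart from its group. CoCl2 raised EGLN3 7.39-fold (log2 fold change 2.89, SE 0.15, edgeR FDR 5.53e-14). With OD it was 1.92-fold higher than in control (0.94, SE 0.17, 95% interval 0.59 to 1.29, edgeR FDR 7.09e-05), just under the limit for a call. Without replicate 2 of each group it was called, with a log2 fold change of 1.01 (edgeR FDR 0.000894).

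The widest change of the set was that of EGLN3 in HT-29 with CoCl2. The control libraries held 16.3, 17.7 and 16.8 CPM, the CoCl2 libraries 270, 259 and 280 CPM, and the OD libraries 20.4, 17.5 and 20.2 CPM. Control and OD libraries overlapped, while those with CoCl2 lay far above. The increase with CoCl2 was 15.9-fold (log2 fold change 3.99, SE 0.06, edgeR FDR 3.20e-27), which ranked 120th of 15812 genes. With OD the level was 1.15-fold that of control (0.20, SE 0.07, edgeR FDR 0.0199), and with library size as the only scaling the difference was 0.06 (edgeR FDR 0.472). The response to CoCl2 was greater in HT-29 than in Caco-2 by 1.00 on the log2 scale (SE 0.17, edgeR FDR 5.13e-06), at the limit for a call, and the response to OD was smaller by -0.76 (SE 0.18, edgeR FDR 0.000713). Between the lines, edgeR called 0 of the 7 members for CoCl2 (4 at an unadjusted p under 0.05) and 1, EGLN1, for OD, against 21.6% and 15.2% of all genes. DESeq2 called 1 for each agent, and limma-trend 1 for CoCl2 and 0 for OD. With the FDR alone, 4 and 6 members passed, against 49.8% and 42.9% of all genes.

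EGLN2 encodes PHD1, whose transcript is not counted among the classical HIF targets. In Caco-2 it stood at 19.9, 19.6 and 18.8 CPM in control, at 32.2, 27.3 and 31.7 CPM with CoCl2 and at 25.5, 24.3 and 22.9 CPM with OD. These groups did not overlap, yet the differences were modest. The levels were 1.57-fold (log2 fold change 0.65, SE 0.10, edgeR FDR 5.88e-06) and 1.25-fold (0.32, SE 0.10, edgeR FDR 0.0124) those of control. With library size only, the OD difference was 0.17 (edgeR FDR 0.173).

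In HT-29, EGLN2 was at 17.7, 16.4 and 18.3 CPM in control, at 49.6, 47.6 and 46.3 CPM with CoCl2 and at 31.2, 30.5 and 30.7 CPM with OD. Again no library of a group overlapped another group, in the order control, OD, CoCl2. CoCl2 raised EGLN2 2.73-fold (log2 fold change 1.45, SE 0.06, edgeR FDR 2.61e-17), and with library size only the change was 0.81 and was not called. With OD it was 1.76-fold higher than in control (0.81, SE 0.07, edgeR FDR 2.39e-11). The difference between the lines was 0.69 for CoCl2 (SE 0.12, edgeR FDR 6.65e-06) and 0.48 for OD (SE 0.12, edgeR FDR 0.00120), both higher in HT-29 and both under the limit for a call. EGLN2 was thus the member with the highest log2 fold change under OD in HT-29, where EGLN1 and EGLN3 had 0.43 and 0.20.

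**Figure D2:**
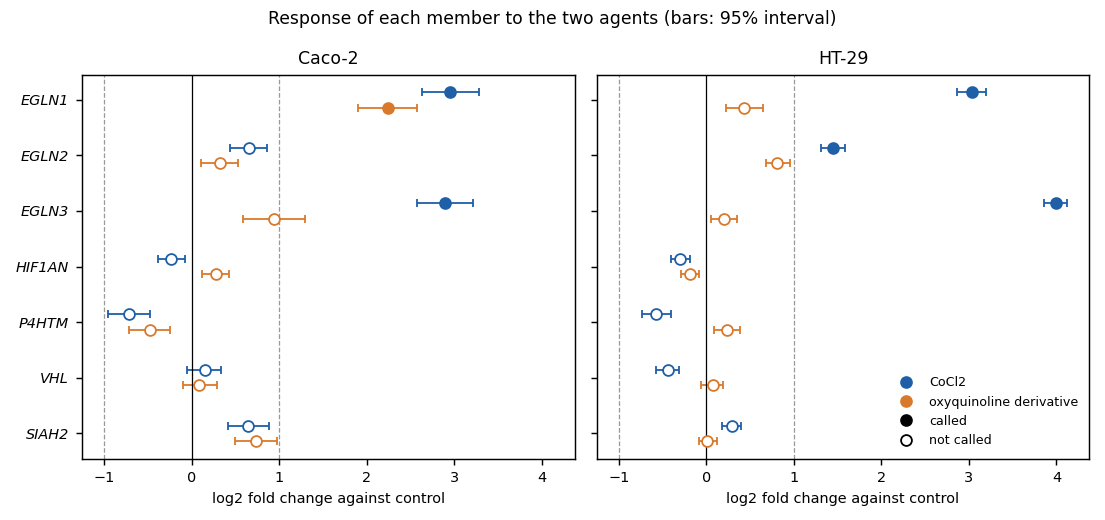
Log2 fold change of each gene against control with its 95% interval (horizontal axis), for CoCl2 (blue) and OD (orange) in Caco-2 and HT-29, with filled points for calls and dashed lines at the limit of 2-fold. With TMM scaling the 3 EGLN genes lie to the right of 0 in all 4 comparisons, and EGLN3 with CoCl2 in HT-29 reaches 3.99, while with library size only SIAH2 with CoCl2 in HT-29 would move to -0.34 and VHL in Caco-2 to -0.17 (CoCl2) and -0.06 (OD).

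The make-up of the prolyl hydroxylase pool was compared per length of merged exons, as each gene's share of the summed RPKM of EGLN1, EGLN2 and EGLN3. The lengths implied by the deposited values were 5353, 6540 and 7325 bases. They lie near the merged length of all annotated exons of each gene, which can exceed that of the transcripts present. Shares and orders between genes depend on these lengths. In Caco-2 control cells EGLN2 gave 70.7% to 71.7% of the sum in the 3 libraries. With CoCl2 the sum went from 4.24 ± 0.107 to 13.7 ± 0.695 RPKM (SD, n = 3), and the 3 genes took about equal parts, with 33.3% ± 3.00 for EGLN1, 33.6% ± 2.29 for EGLN2 and 33.1% ± 2.73 for EGLN3. With OD the sum was 7.61 ± 0.0963 RPKM, and EGLN1 went from 14.3% ± 2.13 to 36.4% ± 5.71 while EGLN3 was at 14.7% ± 1.57 in control and 15.4% ± 3.99 with OD. In Caco-2, therefore, the EGLN2 share was below control with both agents, and the EGLN3 share was above control with CoCl2 and overlapped it with OD.

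The HT-29 pool was different from the start. EGLN2 and EGLN3 held 43.2% ± 2.49 and 37.4% ± 1.46 of the sum in control. With CoCl2 the sum went from 6.34 ± 0.0247 to 51.8 ± 1.99 RPKM (SD, n = 3), of which EGLN3 took 67.5% to 69.2% in the 3 libraries. With OD the sum was 9.04 ± 0.356 RPKM, and EGLN2 took 51.4% to 54.7%. EGLN1 held 19.4% ± 1.51 in control, 18.1% ± 0.508 with CoCl2 and 17.9% ± 0.525 with OD, with overlap between control and both agents. Of the 12 shares compared with control, 9 did not overlap it and had an exact two-sided permutation p of 0.100, the smallest that 3 against 3 allows (0.133 after Benjamini-Hochberg adjustment over the 12), so that none could pass 0.05. The 3 shares of a library make up the whole, so that these 12 are not separate results. Lengths are uncertain, among other places where exons are shared. The shares with CoCl2 moved when the same counts were divided by the exon length that no gene on the same strand shares. EGLN1, EGLN2 and EGLN3 then had 48.0%, 30.9% and 21.1% in the Caco-2 cells, and 31.7%, 15.2% and 53.1% in HT-29. Reads of shared exons were not taken out of these counts.

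**Figure D3:**
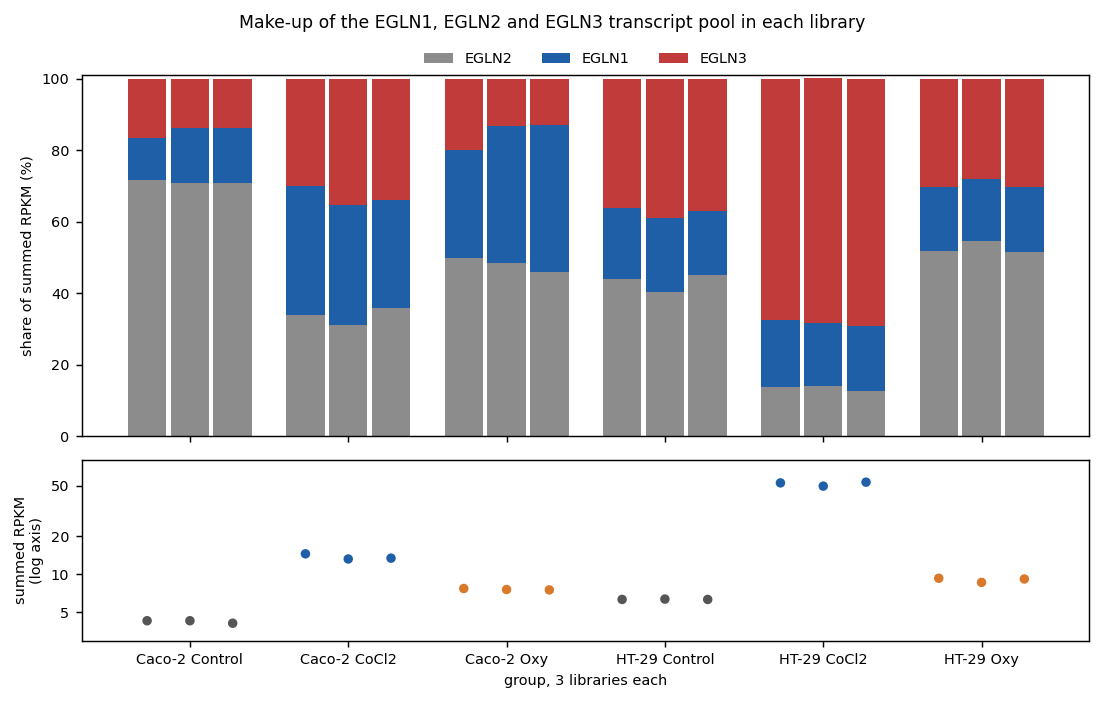
Upper panel, share in percent of the summed RPKM taken by EGLN2 (grey), EGLN1 (blue) and EGLN3 (red) in each of the 18 libraries, as stacked bars from 0. Lower panel, the summed RPKM on a log axis, with 1 point per library. EGLN3 takes 67.5% to 69.2% in the HT-29 CoCl2 libraries and at most 39.0% in any other library.

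P4HTM, the membrane-bound prolyl hydroxylase, was lower with both agents in Caco-2. It stood at 33.3, 38.2 and 30.0 CPM in control, at 22.5, 17.6 and 21.9 CPM with CoCl2 and at 22.6, 23.1 and 27.0 CPM with OD. Control libraries were above all treated libraries, and CoCl2 and OD libraries lay side by side without overlap. The level with CoCl2 was 0.611 of control (log2 fold change -0.71, SE 0.12, edgeR FDR 9.53e-06), and with library size only it reached -1.03 and was called. With OD it was 0.716 of control (-0.48, SE 0.11, edgeR FDR 0.00110).

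In HT-29 the 2 agents were on opposite sides of control for P4HTM. The libraries held 23.1, 27.2 and 25.1 CPM in control, 17.8, 15.9 and 16.9 CPM with CoCl2 and 28.2, 31.2 and 29.7 CPM with OD. No group overlapped another. The log2 fold change was -0.58 with CoCl2 (SE 0.08, edgeR FDR 2.51e-07) and 0.24 with OD (SE 0.07, edgeR FDR 0.00439). With library size only, the CoCl2 value was -1.21 and was called, and the OD value was 0.10 (edgeR FDR 0.215). The response to OD differed between the lines by 0.70 (SE 0.14, edgeR FDR 7.41e-05), and the response to CoCl2 by 0.02 (95% interval -0.27 to 0.32, edgeR FDR 0.926), with a sign that turned to -0.18 with library size only.

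HIF1AN, the gene of the asparaginyl hydroxylase FIH, changed little. Per length it stood at 10.3 ± 0.272 RPKM (SD, n = 3) in Caco-2 control, near SIAH2 at 9.54 ± 0.515 and VHL at 8.87 ± 0.112, and at 7.81 ± 0.193 RPKM in HT-29 control, near VHL at 7.60 ± 0.166. In Caco-2 its libraries held 143, 142 and 136 CPM in control, 110, 128 and 122 CPM with CoCl2 and 174, 173 and 162 CPM with OD. CoCl2 lay below control and OD above it, with no overlap. The log2 fold changes were -0.23 (SE 0.07, edgeR FDR 0.0107) and 0.28 (SE 0.07, edgeR FDR 0.00327), and with library size only they were -0.55 and 0.12 (edgeR FDR 0.165). In HT-29 it held 103, 108 and 105 CPM in control, 83.7, 87.9 and 85.4 CPM with CoCl2 and 92.5, 96.5 and 88.3 CPM with OD. Both agents were below control there, by -0.30 (SE 0.05, edgeR FDR 5.99e-06) and -0.19 (SE 0.05, edgeR FDR 0.00145). The response to OD differed between the lines by -0.48 (SE 0.09, edgeR FDR 3.25e-05). No change of HIF1AN came near the 2-fold limit with TMM, and the value nearest to it with library size only was -0.93, with CoCl2 in HT-29.

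VHL, the substrate receptor of the ligase, had the smallest log2 fold changes of the set in Caco-2. Its libraries held 42.0, 42.4 and 43.1 CPM in control, 52.7, 45.0 and 43.9 CPM with CoCl2 and 51.3, 43.8 and 40.9 CPM with OD. CoCl2 libraries were just above control and OD libraries overlapped it. The log2 fold changes of 0.15 (95% interval -0.05 to 0.34, edgeR FDR 0.178) and 0.09 (95% interval -0.10 to 0.29, edgeR FDR 0.428) did not pass, and with library size only their signs turned, to -0.17 and -0.06. In HT-29 the levels were 35.2, 36.7 and 36.1 CPM in control, 25.9, 28.3 and 25.1 CPM with CoCl2 and 39.5, 38.6 and 35.4 CPM with OD. CoCl2 libraries were below all others, and the OD libraries overlapped control. VHL was 0.735 of control with CoCl2 (log2 fold change -0.44, SE 0.07, edgeR FDR 9.41e-07), or -1.08 with library size only, where it was called. With OD it was 0.07 (95% interval -0.06 to 0.19, edgeR FDR 0.320), or -0.07 with library size only. The CoCl2 response of VHL was lower in HT-29 than in Caco-2 by -0.70 (SE 0.12, edgeR FDR 8.63e-06).

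SIAH2 stands at the other end of the system, since its ligase acts on the hydroxylases. In Caco-2 it was at 23.5, 24.0 and 26.0 CPM in control, at 36.7, 33.1 and 44.6 CPM with CoCl2 and at 47.4, 37.1 and 38.1 CPM with OD. All treated libraries were above control, and the agents overlapped each other. The levels were 1.56-fold (log2 fold change 0.64, SE 0.11, edgeR FDR 2.88e-05) and 1.67-fold (0.74, SE 0.11, edgeR FDR 8.29e-06) those of control. In HT-29 it was at 90.7, 96.0 and 92.7 CPM in control, at 116, 110 and 116 CPM with CoCl2 and at 99.4, 88.2 and 94.0 CPM with OD. Only the CoCl2 libraries were apart from control, with a log2 fold change of 0.29 (SE 0.05, edgeR FDR 1.38e-05) that turned to -0.34 with library size only. With OD it was 0.01 (95% interval -0.09 to 0.12, edgeR FDR 0.850), or -0.12 with library size only. The response of SIAH2 was smaller in HT-29 than in Caco-2 for CoCl2, by -0.47 (SE 0.13, edgeR FDR 0.00232), and for OD, by -0.74 (SE 0.12, edgeR FDR 8.47e-06).

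CoCl2 and OD were then compared with each other, at 300 µM and 5 µM, so that the values hold for these doses alone. The comparisons above share control libraries, and this one needs none. EGLN3 was higher with CoCl2 than with OD by 3.85-fold in Caco-2 (log2 fold change 1.95, SE 0.14, edgeR FDR 7.00e-11) and by 13.9-fold in HT-29 (3.79, SE 0.06, edgeR FDR 3.85e-26), where it ranked 35th of 15812 genes. EGLN1 was higher by 6.04-fold in HT-29 (2.60, SE 0.08, edgeR FDR 1.93e-20) and by 1.64-fold in Caco-2 (0.72, SE 0.13, edgeR FDR 6.98e-05). So 1 of 7 genes was called in Caco-2 and 2 in HT-29, against 11.7% and 29.9% of all genes called in either direction and 5.21% and 10.8% called higher with CoCl2. EGLN2 differed by 0.33 (edgeR FDR 0.00858) in Caco-2 and 0.63 in HT-29, which with library size only were 0.16 (edgeR FDR 0.173) and 0.14 (edgeR FDR 0.0444), and without replicate 3 of each group the Caco-2 value was 0.25 (edgeR FDR 0.148). P4HTM was lower with CoCl2 in HT-29 by -0.82 (SE 0.08, edgeR FDR 5.12e-10). HIF1AN was lower with CoCl2 in Caco-2 by -0.50 (SE 0.07, edgeR FDR 5.09e-06), and VHL was lower in HT-29 by -0.51 (SE 0.07, edgeR FDR 1.09e-07). For VHL and SIAH2 in Caco-2 the differences were 0.05 (95% interval -0.14 to 0.25) and -0.09 (95% interval -0.32 to 0.13), and neither passed.

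Between the untreated lines 3 of the 7 genes were called, against 45.8% of all genes called and 21.6% called lower in Caco-2. With the FDR alone 5 passed, against 79.1% of all genes. On a scale common to all 18 libraries, SIAH2 stood at 24.1 ± 1.37 CPM in Caco-2 and 97.4 ± 3.17 in HT-29 (SD, n = 3), a log2 difference of Caco-2 from HT-29 of -2.02 (SE 0.09, edgeR FDR 2.75e-20). EGLN3 stood at 4.42 ± 0.537 and 17.7 ± 0.792 CPM, a difference of -1.99 (SE 0.13, edgeR FDR 7.83e-16). EGLN1 stood at 3.13 ± 0.435 and 6.71 ± 0.488 CPM, a difference of -1.10 (SE 0.16, edgeR FDR 1.62e-07), which was -0.95 without replicate 1 of each group and -0.48 on the deposited log2 values (limma-trend FDR 3.63e-05), and in neither case called. SIAH2, EGLN3 and EGLN1 were thus lower in the differentiated Caco-2 cells, while the other members differed by 0.06 (EGLN2) to 0.34 (P4HTM). Of these, HIF1AN (0.33, edgeR FDR 1.70e-05) and P4HTM (edgeR FDR 0.00202) passed the FDR, both higher in Caco-2. Across the 6 groups on this scale, EGLN1 lay in the order Caco-2 control, HT-29 control, HT-29 OD, Caco-2 OD, Caco-2 CoCl2 and HT-29 CoCl2, with no overlap between neighbours. For EGLN3 the order was Caco-2 control, Caco-2 OD, HT-29 control, HT-29 OD, Caco-2 CoCl2 and HT-29 CoCl2, and only HT-29 control and HT-29 OD overlapped. For EGLN2 the controls of the lines were lowest and overlapped, and Caco-2 CoCl2 overlapped HT-29 OD. The 3 SIAH2 groups of Caco-2 were all below those of HT-29.

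Other genes of the pathway were read beside the members, with lists drawn up from general knowledge while earlier results of these data were known. Counts of calls in these lists are therefore descriptions and not tests. Of 5 HIF subunits, Caco-2 had 4 that could be tested and HT-29 had 3. HIF1A was called higher with CoCl2 in HT-29 (log2 fold change 1.40, edgeR FDR 1.25e-19), a call lost with library size only, and HIF3A lower with both agents in Caco-2. With OD in Caco-2, limma-trend called 0 of the HIF subunits lower. HIF3A had at most 1 count in any HT-29 library. EPAS1, which encodes HIF-2 alpha, was between 0.55 and 0.79 in the 4 comparisons with control, and ARNT, the constant partner of the alpha subunits, between -0.06 and 0.10. Of 9 partners of the VHL ligase, ELOC was called higher with CoCl2 in Caco-2 (1.09), and RBX1 (1.03) and UBE2M (1.21) with CoCl2 in HT-29, and with library size only none of these 3 was called. With OD 0 of the 9 were called by edgeR, DESeq2 or limma-trend in either line, and 4 and 5 had an unadjusted p under 0.05 in edgeR. Of all genes, edgeR called 23.4% and 41.3% with CoCl2, and 11.7% and 17.1% with OD, in Caco-2 and HT-29. The median of this list was 0.02 and 0.64 with CoCl2, and -0.09 and 0.02 with OD, in Caco-2 and HT-29, beside -0.03 and -0.03, and -0.02 and 0.01 for all genes.

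Among regulators of SIAH and of the hydroxylases, 12 of 13 were tested, and in HT-29 2 were called higher and 2 lower with CoCl2 and 1 and 1 with OD, where 41.3% and 17.1% of all genes were called. AJUBA, a scaffold protein of the LIM family, fell with CoCl2 (log2 fold change -2.61, edgeR FDR 3.97e-23) and with OD (-2.13, edgeR FDR 5.58e-21). PTGES3, a co-chaperone of HSP90, rose with CoCl2 (1.29), as did WDR83 (1.22), while RHOBTB3 fell (-1.37), and with library size only the calls of PTGES3 and WDR83 were lost. WTIP rose with OD in HT-29 (1.23), at low levels of 2.47 CPM in control and 5.90 CPM with OD, and limma-trend called 0 of the list higher there. In Caco-2 0 were called in the comparisons with control by edgeR, DESeq2 or limma-trend, and 7 (CoCl2) and 3 (OD) had an unadjusted p under 0.05 in edgeR. Of all genes, edgeR called 23.4% (CoCl2) and 11.7% (OD) in that line. The list had medians of 0.00 (CoCl2) and 0.03 (OD) in Caco-2, and of 0.32 (CoCl2) and 0.07 (OD) in HT-29.

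Other 2-oxoglutarate dioxygenases, which share cofactors with the HIF hydroxylases, were counted in the same way. With CoCl2, 12 of 32 were called higher and 4 lower in Caco-2, and 17 of 31 higher and 4 lower in HT-29, where 23.4% and 41.3% of all genes were called. With OD, 6 were called higher and 1 lower in Caco-2, and 2 higher and 1 lower in HT-29, beside 11.7% and 17.1% of all genes. With library size only, CoCl2 gave 8 higher and 4 lower in Caco-2, and 11 higher and 6 lower in HT-29. The list had medians of 0.56 (CoCl2) and 0.36 (OD) in Caco-2, and of 1.37 (CoCl2) and 0.28 (OD) in HT-29, beside medians of all genes of -0.03, -0.02, -0.03 and 0.01. The collagen prolyl hydroxylases P4HA1 (3.08, 2.63, 3.43 and 1.67 on the log2 scale, in the same order) and P4HA2 (2.29, 1.90, 2.39 and 2.41) were called higher in all 4 comparisons. The histone demethylase KDM3A had 2.19 (CoCl2) and 1.83 (OD) in Caco-2, and 3.54 (CoCl2) and 0.64 (OD) in HT-29. KDM8, at low group means of 0.952 to 4.60 CPM, was called lower in all 4, from -1.04 to -1.58. With OD, limma-trend called 0 of the list lower in either line. The study had already named P4HA1 and KDM8 among genes that responded to both agents in Caco-2.

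A readout of 14 HIF target genes, none of them a member and KDM3A among them, gave the setting for EGLN1 and EGLN3. The study had already named ANKRD37, NDRG1, PDK1, BNIP3 and KDM3A as responding to both agents in Caco-2. With CoCl2, 13 of 13 tested were called higher in Caco-2 and 13 of 14 in HT-29, with medians of 3.20 and 3.18. Of all genes, 9.13% and 17.4% were called higher. With OD, 12 of 13 were called higher in Caco-2 (median 2.51) and 8 of 14 in HT-29 (median 1.01), where DESeq2 called 6 and limma-trend 4. The shares of all genes called higher with OD by edgeR were 4.43% and 9.50%. Beside that readout, OD in Caco-2 had a log2 fold change of 2.24 for EGLN1 and of 0.94 for EGLN3. In HT-29 with OD the 14 genes ran from -0.06 (PDK1) to 2.93 (ENO2), with SLC2A1 at 0.42 and KDM3A at 0.64, and EGLN1 had 0.43 and EGLN3 0.20. ADM, the vasodilator peptide adrenomedullin, had 3.47 (CoCl2) and 0.53 (OD) in Caco-2.

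**Figure D4:**
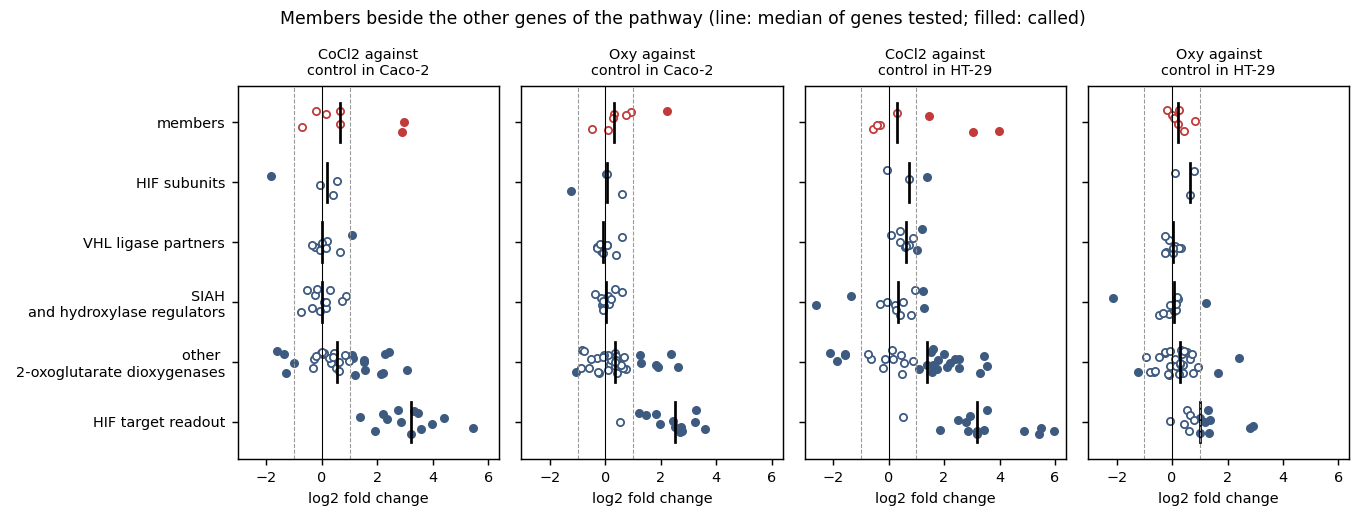
Log2 fold change against control (horizontal axis) of every gene tested in the member set (red) and in 5 other lists (blue), for CoCl2 and OD (labelled Oxy) in Caco-2 and HT-29, with filled points for calls and a black line at the median of the list. The HIF target readout has medians of 3.20, 2.51, 3.18 and 1.01 from left to right, and the members 0.64, 0.32, 0.29 and 0.20. With library size only the median of all genes moves by -0.63 in the third panel, and SIAH2 turns to -0.34 there.

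Genes whose 4 log2 fold changes against control were nearest to those of a member were found among 10436 genes with a mean of at least 100 counts, by the root mean square of the differences. For EGLN1 they were SLC2A1 (0.30), which encodes the glucose transporter GLUT1, PLOD2 (0.34), a lysyl hydroxylase, and LDHA (0.34), lactate dehydrogenase A. SLC2A1 had 3.20, 2.75, 3.18 and 0.42, where EGLN1 had 2.95, 2.24, 3.03 and 0.43. For EGLN3 the nearest were FAM241B (0.39), ZFAND2A (0.42) and UFD1 (0.48), and ZFAND2A had 2.91, 0.62, 3.76 and 0.94 beside 2.89, 0.94, 3.99 and 0.20. EGLN2 had EMSY (0.05), ANKHD1 (0.06) and PHC3 (0.07) as neighbours. The nearest to P4HTM was WDSUB1 (0.07), to HIF1AN NUTM2A-AS1 (0.03), to VHL GRAMD4 (0.05) and to SIAH2 ALDH18A1 (0.06). The 4 comparisons share control libraries within each line, and the likeness is a description of these values.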

How the data were processed

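Messenger RNA was measured in 18 libraries of Caco-2 and HT-29. Per the labels, libraries were made with a stranded kit and read single-end. The deposited files hold whole-number read counts for each gene and log2 values for the genes that the authors kept. The submitters' processing notes name FastQC 0.11.9, cutadapt 2.10, STAR 2.7.5b and edgeR 3.30.3 and the build GRCh38.p13, and the study used GENCODE 34. The counting tool and its use of strand are not given in the sources used here. The deposited log2 values were recomputed from the counts and hold log2 of RPKM plus 1, scaled within each line: in 100% of the genes checked, the implied length was constant over libraries within 2%, and each library's scale was 0.977 to 1.05 of the TMM value found here. The deposited miRNA tables were not used, and 0 per-sample columns lacked a sample.

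Counts were tested with edgeR 4.0.16 in R 4.3.3, with filterByExpr, TMM scaling and the two-sided quasi-likelihood F test, over the 9 libraries of a line (the 3 groups share one estimate of the spread) or, for differences between the lines, over all 18. P-values were adjusted by Benjamini-Hochberg over all genes tested. A gene was called at FDR under 0.05 and an absolute log2 fold change over 1. SE is the log2 fold change divided by the root of F. CPM are on TMM-scaled library sizes. Alternatives were library size only, median-ratio size factors, no filter, DESeq2 1.42.0 (the study's tool), an FDR of 0.01, no limit on the fold change, limma 3.58.1 on the deposited log2 values, a replicate block, leaving out each replicate number, and, over both lines, TMM within each line. The code was tested on simulated counts. Groups come from the sample labels, which number the replicates without saying that a number pairs samples. Every member was to be named, then genes of the pathway lists, and for each member the 3 genes of nearest pattern. The members and lists were chosen with earlier results of these data known.

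Precision rests on 3 libraries, and members had 46 to 3744 counts per library. Coordinates are from GENCODE v44 on GRCh38 and promoter windows from RefSeq GRCh38.p14.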

Additional observations from a re-analysis of the deposited data

Results flagged for a closer look

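In 10 cases the response of a member to an agent differed between the lines by a test of the difference itself, the interaction of line and treatment in edgeR over all 18 libraries (HT-29 minus Caco-2, log2 scale, FDR under 0.05). Over all 17921 genes tested, 49.8% passed that test for CoCl2 and 42.9% for OD, so that 4 of 7 members for CoCl2 and 6 of 7 for OD are read against these shares. For CoCl2 the differences were 0.69 for EGLN2, 1.00 for EGLN3, -0.70 for VHL and -0.47 for SIAH2. For OD they were -1.83 for EGLN1, 0.48 for EGLN2, -0.76 for EGLN3, -0.48 for HIF1AN, 0.70 for P4HTM and -0.74 for SIAH2. The line and the state of culture cannot be told apart in any of them. No test for outlying libraries was run on groups of 3.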

How the results depend on the processing

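Of 714 log2 fold changes of members over the alternatives, 641 kept their direction and their side of the limit. Alternatives that changed only the FDR or the fold limit reused the main values, so their log2 fold changes could not move. Members under the fold limit that passed the FDR counted as changed once that limit was dropped. EGLN2 with CoCl2 in Caco-2, at 0.65 in both, was such a case. The 641 is therefore a count and not a measure of how stable the values are. With no limit on the fold change, 6 (CoCl2) and 6 (OD) of the 7 genes were called in Caco-2, 7 (CoCl2) and 5 (OD) in HT-29, 4 and 6 between the agents (Caco-2, HT-29), 4 (CoCl2) and 6 (OD) between the lines, and 5 between the controls. Over all genes that setting gave from 7682 calls (OD between the lines, 2724 with the limit) to 14175 (controls, 8202 with it). On the deposited log2 values limma-trend gave from 341 (CoCl2 against OD in Caco-2, 1868 in edgeR) to 2520 (CoCl2 in HT-29, 6524 in edgeR), and the causes were not tested. With library size only, 4 genes were called between the agents in HT-29 (EGLN1, EGLN3, VHL and P4HTM).

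Signs turned for small values. With library size only, VHL had -0.17, -0.06 and -0.11 in Caco-2 (CoCl2, OD, and CoCl2 against OD) and -0.07 with OD in HT-29, SIAH2 had -0.34, -0.12 and -0.22 in HT-29, and P4HTM -0.18 for the difference between the lines with CoCl2. SIAH2 with OD in HT-29 was -0.01 with median-ratio factors, DESeq2 and limma-trend. EGLN1 between the lines with CoCl2 was 0.07 with median-ratio factors, DESeq2 and TMM within each line, and 0.42 with limma-trend. With a replicate number left out, VHL with OD in Caco-2 ran from -0.02 to 0.18, SIAH2 with OD in HT-29 from -0.06 to 0.08, SIAH2 between the agents in Caco-2 from -0.28 to 0.07, and between the lines with CoCl2 EGLN1 ran from -0.26 to 0.15 and P4HTM from -0.07 to 0.15.

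EGLN3 between the lines with CoCl2 lay at the limit, and 1 member was called there with median-ratio factors (1.10), DESeq2 (1.10), limma-trend (1.67) and TMM within each line (1.10). The limma-trend values carry a pseudocount of 1, which lessens a change from a low level more. Its part in the value of 1.67 was not tested. In control, EGLN3 stood at 0.624 RPKM in Caco-2 and 2.37 RPKM in HT-29. Leaving out a replicate number gave 0 to 1 calls there and 1 to 2 for OD in Caco-2. With limma-trend 0 members were called for OD between the lines.

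The shares of EGLN1, EGLN2 and EGLN3 moved with the length used. From counts with no length, EGLN1 had 11.8% and 27.8% in Caco-2 (control, CoCl2) and 15.7%, 14.1% and 14.6% in HT-29 (control, CoCl2, OD). EGLN2 had 71.6% and 50.6% in Caco-2 (control, OD), and EGLN3 had 16.6% and 37.8% in Caco-2 (control, CoCl2) and 41.5%, 73.0% and 32.9% in HT-29. The full counts were also divided by the unshared exon length, chosen after seeing the data. EGLN1 then had 21.6%, 48.0% and 49.2% in Caco-2 (control, CoCl2, OD) and 30.6%, 31.7% and 27.8% in HT-29. EGLN2 had 68.5%, 30.9% and 41.6% in Caco-2 and 15.2% with CoCl2 in HT-29. EGLN3 had 9.85%, 21.1% and 9.27% in the Caco-2 cells and 26.0%, 53.1% and 20.2% in HT-29.

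Same-numbered libraries had correlations of their deviations from group means of -0.055 to 0.068 in Caco-2 and -0.037 to 0.025 in HT-29, so that the numbers were not taken to pair samples. With the replicate block 2 and 1 members were called in Caco-2 (CoCl2, OD) and 3 and 0 in HT-29, as without it.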

Other observations

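Markers of the cells themselves also moved in these libraries. Of the epithelial markers, KRT8, KRT18 and KRT19 were called higher and LGALS4 lower with CoCl2 in Caco-2, and KRT20 was called higher with OD there. LGALS4 was low, at 3.05 CPM in Caco-2 control and 1.41 CPM with CoCl2, and limma-trend called 0 epithelial markers lower in that comparison. In HT-29, KRT19 and KRT20 were called higher and VIL1, CDX1 and CDX2 lower with CoCl2, and KRT20 higher and VIL1 lower with OD. Of 8 enterocyte markers, APOA4 and SLC15A1 were called higher with both agents in Caco-2, and SI and FABP2, genes of sugar digestion and fatty acid binding, lower with CoCl2. ANPEP was called lower with both agents in HT-29 and APOA1 higher with OD, each at a low level. APOA1 stood at 0.274 CPM in control and 0.665 CPM with OD, and DESeq2 and limma-trend called 0 of the 8 higher there. In the HT-29 comparisons with control, limma-trend also called 0 lower. FABP2 in Caco-2 was low too, at 1.18 CPM in control and 0.444 CPM with CoCl2. Among 12 markers of other cell types, at low levels, PECAM1 and VWF were called lower with CoCl2 and VWF with OD in Caco-2. In HT-29, CD79A was called higher with both agents, COL1A1 higher with OD, and PECAM1 and ACTA2 lower with CoCl2. Limma-trend called 0 of these 12 markers in the comparisons with control. The part of these changes in the results on the HIF hydroxylases was not tested.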
